A study of Saccharomyces cerevisiae with 10 samples.

Results

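The transcriptome of homozygous diploid budding yeast (Saccharomyces cerevisiae) lacking SNT1 was set against that of naive diploids of the same strain. The comparison was defined by the labels and holds 4 libraries, 2 of the snt1 deletion and 2 naive, of 10 in the series. All groups were strain BY4743, a diploid laboratory strain with auxotrophic markers. All were grown in rich glucose medium (YPD) to mid-logarithmic phase, at an OD600 (a measure of cell density) of about 0.5, before RNA was taken for polyadenylated-RNA sequencing. Homozygous diploid deletions of HOS2 and of SET3, with 2 libraries each, are given beside the snt1 deletion where they help to place it. The remaining group, in the heritable [ESI+] state, was not compared. It entered the choice of genes tested, the scaling of libraries and the shared estimate of the spread between libraries. The labels do not say whether replicates came from separate cultures, or whether the deletion strains were made as 1 clone each, so the p-values below measure only the spread between these libraries.

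Snt1 carries SANT domains, a fold found in many chromatin proteins, and is a subunit of the Set3 complex, a histone deacetylase complex of yeast. The other subunits are Set3, whose PHD finger binds methylated histone H3, the deacetylases Hos2 and Hst1, the WD-repeat protein Sif2, the ankyrin-repeat protein Hos4 and the cyclophilin Cpr1. The complex is best known for repressing meiotic genes in growing cells and for acting within transcribed genes, where it is tied to how fast genes respond to a change of carbon source. Hst1 also works with Sum1 outside this complex, and its known targets include genes for the synthesis of NAD.

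The 2 snt1 deletion libraries held 22057002 and 24831560 estimated counts and the 2 naive libraries 27318367 and 18274386, within a range of 8327735 to 80651761 over the series. ERCC spike-in RNAs took 2.28% and 2.54% of snt1 deletion replicates 1 and 2, and 1.43% and 3.31% of naive replicates 1 and 2. Ribosomal RNA took between 13.7% and 15.8% of these 4 libraries. The snt1 deletion pair was the least alike of all replicate pairs. Of 6390 genes tested, 700 (11.0%) were more than 2-fold apart between the 2 snt1 deletion libraries, against 290 (4.54%) between the naive pair, 103 (1.61%) between the hos2 deletion pair and 142 (2.22%) between the set3 deletion pair. The correlation of log-scale expression across genes was 0.955 between snt1 deletion replicates 1 and 2, within the range of 0.954 to 0.975 over the 4 pairs of an snt1 deletion and a naive library, against 0.974 between the 2 naive libraries. Results are therefore given with the value without a library wherever that changes a call.

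SNT1 (YCR033W, chromosome III, 186489 to 190169, build R64) was down to a few reads in the deletion. Replicates 1 and 2 of the snt1 deletion held 1 and 4 counts of it, and those of naive 986 and 504. Scaled for library size the deletion held 0.419% of the naive level, with an exact binomial 95% interval of 0.136 to 0.979% that covers counting error only. In counts-per-million (CPM) on TMM-scaled libraries these were 0.0555 and 0.263 in the snt1 deletion and 34.4 and 39.3 in naive. SNT1 stood at 55.9 and 63.5 CPM where HOS2 was deleted and at 66.6 and 67.2 CPM where SET3 was deleted. The other 6 genes of the complex showed no call in the snt1 deletion, where 0.454% of all genes tested were called, with log2 fold changes between -0.22 and 0.74 and a median of 0.03. SET3 stood at 4.33 and 6.11 CPM in the snt1 deletion and 5.69 and 3.97 CPM in naive. HOS2 stood at 6.15 and 4.20 CPM in the snt1 deletion and 5.73 and 5.30 CPM in naive. HST1 stood at 20.9 and 23.5 CPM in the snt1 deletion and 17.8 and 13.0 CPM in naive. For SET3 and HOS2 the groups overlapped, and for HST1 both deletion libraries were above both naive ones without a call. Of the 3 genes on either side of SNT1, from SYP1 to RBK1, none was called, and their median log2 fold change was 0.20. The same held for all 18 genes tested within 20 kb of it, with a median of 0.15.

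Cell type was read from 24 haploid-specific and mating genes, which diploids keep low, without a haploid library in the series for scale. Their summed level was 46.9 and 49.1 CPM in the snt1 deletion and 66.2 and 62.0 CPM in naive. None of the 24 was at 0 in any of the 4 libraries, and none was called. Their median log2 fold change was -0.44, with 22 of the 24 negative, against -0.004 over all genes. Early meiotic genes summed to 42.7 and 55.3 CPM in the snt1 deletion and 54.3 and 53.6 CPM in naive. Middle and late meiotic genes summed to 38.0 and 43.2 CPM in the snt1 deletion and 49.8 and 44.3 CPM in naive. None of the 21 early or the 25 middle and late meiotic genes tested was called in either direction, and their medians were -0.19 and -0.34, against -0.004 over all genes. These are bulk samples, in which fewer cells of a kind and less RNA per cell cannot be told apart. The haploid sum was lower in both snt1 deletion libraries than in both naive ones, and its part in the results below was not tested.

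Loss of SNT1 changed few transcripts past the threshold. Of 6390 genes tested with edgeR's quasi-likelihood test, 29 passed a Benjamini-Hochberg adjusted p of 0.05, which is 0.454% of genes tested. Of these, 25 were lower (0.391%) and 4 were higher (0.0626%) in the snt1 deletion. The genes lower in the deletion, beside SNT1, include YKR075C, IMD2, the glucose transporter gene HXT1, regulators of glucose repression and enzymes of NAD synthesis. The genes higher in it were the iron uptake genes SIT1, FET3 and FTR1 and the reading frame YGR137W. At an unadjusted p under 0.05 there were 601 genes, 247 higher and 354 lower. For all 29 called genes both snt1 deletion libraries lay beyond both naive ones in CPM, as they did for 30.5% of all genes tested. Counts of 14 of the 29 include reads shared with other targets. The number of calls moved with single libraries. Leaving out snt1 deletion replicate 1 gave 320 (183 higher, 137 lower) and leaving out its replicate 2 gave 55. Leaving out the first or second naive library gave 19 and 18. Of the 29 genes, 9 kept their call in all 4 such fits, namely SNT1, YKR075C, IMD2, HXT1, YJR115W, BNA4, FET3, SIT1 and YJL026C-A. In these fits, as in the full one, the spread was also estimated from the groups not compared. Fitted on the 4 libraries alone, 6 of the 29 were called, SNT1, YKR075C, IMD2, YJL026C-A, YRF1-3 and YRF1-7. None of them belongs to the glucose signalling, hexose transporter, NAD or iron lists. HXT1, YJR115W, BNA4, FET3 and SIT1 then had adjusted p of 0.0656, 0.0582, 0.0815, 0.0609 and 0.0582. With library sizes taken from the spike-ins, the median over all genes was -0.66 on the log2 scale, so changes are relative to the bulk of transcripts. The spike-in shares of the naive pair, 1.43% and 3.31%, lay on either side of those of the snt1 deletion pair, 2.28% and 2.54%. The size of this shift thus rests on an uneven naive pair. The shift is downward, so keeping a sign under it is a check for the 4 higher genes alone. They stayed positive, at 1.91 for SIT1, 1.88 for FET3, 1.44 for FTR1 and 0.46 for YGR137W, with adjusted p of 0.915 each. With these sizes 3 genes were called, none of them higher. DESeq2 gave 99 calls, 41 higher and 58 lower.

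**Figure D1:**
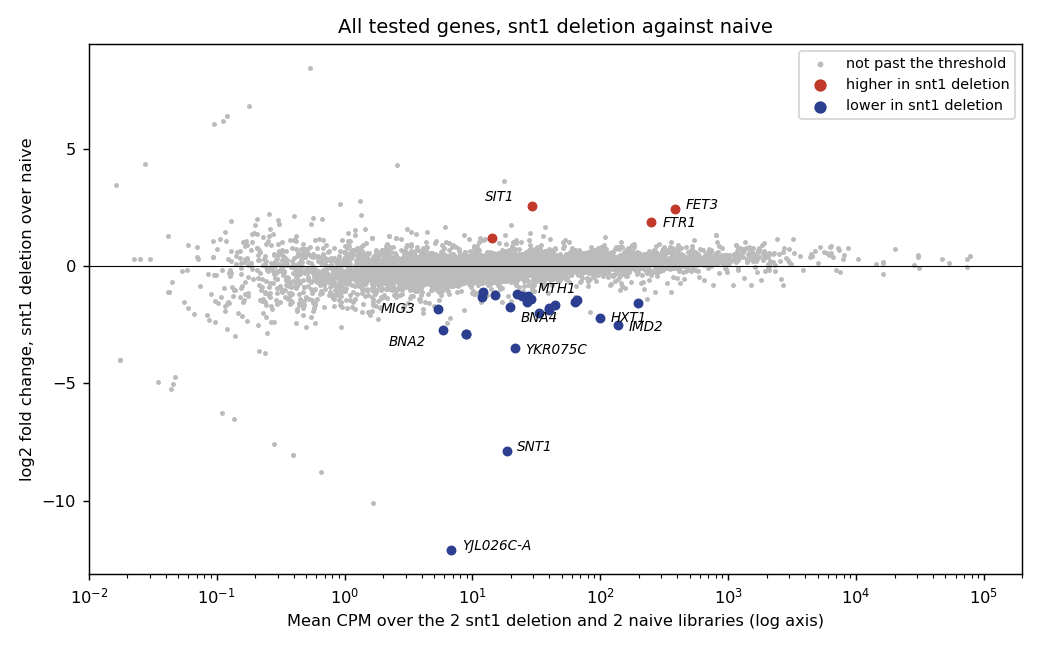
Mean level in CPM over the 4 libraries (x axis, log scale) against the log2 fold change of the snt1 deletion over naive (y axis) for the genes tested, except 10 with a mean under 0.01 CPM. The 4 genes higher in the deletion (red) and 25 lower (blue) past an adjusted p of 0.05 lie mostly between -3.5 and 2.6, with SNT1 and YJL026C-A further down.

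HXT1, MTH1, MIG2 and MIG3, genes of glucose transport and glucose repression, were lower in the snt1 deletion. Budding yeast imports glucose through a family of hexose transporters, and the repressor Rgt1, held on DNA with its partners Mth1 and Std1, shuts several of them when glucose is scarce. Mig1, Mig2 and Mig3 are zinc-finger repressors that act when glucose is plentiful, as in the medium used here. Of 22 genes of glucose signalling tested, 3 were lower and 0 higher, with a median log2 fold change of -0.16. Of 15 hexose transporters tested, 1 was lower and 0 higher, with a median of -0.80, and 14 of the 15 had a negative value. Over all genes tested the median was -0.004, with 0.391% called lower.

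HXT1 (YHR094C, chromosome VIII, 290913 to 292625), the low-affinity transporter used at high glucose, had 27.4 and 43.0 CPM in the snt1 deletion, against 133.9 and 193.5 CPM in naive. Both deletion libraries were below both naive ones, and the log2 fold change was -2.22 ± 0.27 (SE, 2 libraries per group), adjusted p = 0.00262. Counts of HXT1 include reads shared with other targets. Summed, HXT1, HXT3 and HXT4 had 1323 and 1388 CPM in the snt1 deletion and 2096 and 3007 CPM in naive. YKR075C (chromosome XI, 579827 to 580750), a protein of unknown function, had 3.55 and 3.42 CPM in the snt1 deletion, against 43.1 and 35.4 CPM in naive. It was 11.3-fold lower, with a log2 fold change of -3.50 ± 0.32 and adjusted p = 0.000316. MTH1 (YDR277C, chromosome IV, 1014401 to 1015702), the Rgt1 partner, had 12.1 and 15.5 CPM in the snt1 deletion, against 37.8 and 41.5 CPM in naive. Its log2 fold change was -1.52 ± 0.21, adjusted p = 0.0062. MIG3 (YER028C, chromosome V, 210692 to 211876) had 2.16 and 2.50 CPM in the snt1 deletion, against 7.12 and 9.74 CPM in naive, a log2 fold change of -1.85 ± 0.28 with adjusted p = 0.0134. MIG2 (YGL209W, chromosome VII, 95858 to 97006) had 12.9 and 14.1 CPM in the snt1 deletion, against 25.5 and 36.1 CPM in naive, a log2 fold change of -1.19 ± 0.20 with adjusted p = 0.0248. In each of these 5 genes the groups were apart, and the naive pair was further spread than the deletion pair for YKR075C, MIG2 and MIG3. Without naive replicate 2 the adjusted p was 0.0564 for MTH1, 0.0774 for MIG3 and 0.154 for MIG2.

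The members that did not pass lay on both sides of 0. Of the 22 glucose signalling genes, 12 had a negative value, the 3 called ones among them, and 10 a positive one, up to 0.44. RGT1 itself had 52.9 and 85.3 CPM in the snt1 deletion and 44.8 and 60.1 CPM in naive, a log2 fold change of 0.40 with adjusted p = 0.666. RGT2, a glucose sensor, had 14.6 and 12.2 CPM in the snt1 deletion and 12.4 and 12.9 CPM in naive, a log2 fold change of 0.09 with adjusted p = 0.913. For both genes the groups overlapped. Among the members with a negative value, MIG1, the main glucose repressor, had 20.1 and 19.6 CPM in the snt1 deletion and 32.2 and 36.8 CPM in naive, a log2 fold change of -0.80 with adjusted p = 0.106. REG2, a regulatory subunit of the Glc7 phosphatase, had 1.89 and 2.48 CPM in the snt1 deletion and 6.73 and 5.84 CPM in naive, a log2 fold change of -1.53 with adjusted p = 0.113. The high-affinity transporters HXT6 and HXT7 are near-identical copies whose reads the counting divides between them. Summed, they had 987 and 664 CPM in the snt1 deletion and 1430 and 1619 CPM in naive. HXT4 had 274 and 174 CPM in the snt1 deletion and 458 and 510 CPM in naive, a log2 fold change of -1.11 with adjusted p = 0.201. HXT3, like HXT1 a low-affinity transporter, had 1021 and 1171 CPM in the snt1 deletion and 1504 and 2303 CPM in naive, a log2 fold change of -0.80 with adjusted p = 0.376. For MIG1, REG2, HXT4, HXT3 and the sum of HXT6 and HXT7 the deletion libraries lay below the naive ones without a call. Without snt1 deletion replicate 1 the adjusted p was 0.0416 for MIG1 and 0.0192 for HXT4.

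The DNA upstream of HXT1 and 3 other called genes is shown because it holds letters of the motif known for Rgt1. The letters CGGANNA, or their reverse complement, are in capitals. The sequences were read from the R64 genome of RefSeq, 5′ to 3′ on the gene's strand, from 300 to 101 bases before the start codon. HXT1 is chrVIII:292726-292925 on the minus strand, YKR075C is chrXI:580851-581050 on the minus strand, MIG2 is chrVII:95558-95757 on the plus strand and MIG3 is chrV:211977-212176 on the minus strand.
HXT1: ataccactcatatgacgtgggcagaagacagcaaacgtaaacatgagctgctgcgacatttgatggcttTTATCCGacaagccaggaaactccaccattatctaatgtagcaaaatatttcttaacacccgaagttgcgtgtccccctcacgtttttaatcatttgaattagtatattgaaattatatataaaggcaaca
YKR075C: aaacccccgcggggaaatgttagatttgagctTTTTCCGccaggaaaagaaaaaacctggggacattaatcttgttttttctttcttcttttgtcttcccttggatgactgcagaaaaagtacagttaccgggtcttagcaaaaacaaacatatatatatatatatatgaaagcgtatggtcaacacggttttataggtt
MIG2: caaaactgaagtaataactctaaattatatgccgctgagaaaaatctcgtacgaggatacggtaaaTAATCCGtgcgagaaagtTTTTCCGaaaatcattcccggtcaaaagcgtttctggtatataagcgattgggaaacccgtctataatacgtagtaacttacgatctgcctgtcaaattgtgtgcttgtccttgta
MIG3: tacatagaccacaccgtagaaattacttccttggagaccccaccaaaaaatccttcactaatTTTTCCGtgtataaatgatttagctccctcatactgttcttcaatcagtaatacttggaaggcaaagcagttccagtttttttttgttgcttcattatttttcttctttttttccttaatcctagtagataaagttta
Within 300 bases of the start codon on either strand, the motif occurred in 12 of 22 annotated genes called lower beside SNT1 (54.5%), in 1 of 3 called higher, and in 1615 of 5993 nuclear reading frames (26.9%). It was found once before HXT1, YKR075C and MIG3 and at 2 places before MIG2, and not before MTH1. The TATA letters TATAAA occurred in 15 of the 22 (68.2%) and in 48.2% of all reading frames, and the stress element CCCCT in 27.3% of the 22 and 22.2% of all. The 22 include repeated sequences, each counted separately. These are YRF1-3 and YRF1-7, which have identical values, and the Ty retrotransposon frames YHR214C-B and YNL284C-B. These matches describe the letters in a window and no binding was measured here.

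Synthesis of NAD from tryptophan was the second group with several members lower. This pathway opens the ring of tryptophan and ends in nicotinic acid mononucleotide, and its genes are known to be repressed by Hst1 and Sum1 while NAD is plentiful. Of 16 genes of NAD synthesis and precursor uptake tested, 4 were lower and 0 higher in the snt1 deletion, with a median log2 fold change of -0.44. Among the 7 BNA genes 3 were lower, with a median of -1.43. The background was 0.391% of genes called lower. BNA2 (YJR078W, chromosome X, 578860 to 580221), the dioxygenase that opens the pathway, had 1.497 and 1.576 CPM in the snt1 deletion, against 7.75 and 12.7 CPM in naive. Its log2 fold change was -2.73 ± 0.43, adjusted p = 0.0141. BNA4 (YBL098W, chromosome II, 39145 to 40527), kynurenine 3-monooxygenase, had 10.4 and 7.55 CPM in the snt1 deletion, against 32.2 and 28.6 CPM in naive. Its log2 fold change was -1.76 ± 0.23, adjusted p = 0.00406, and it kept its call without any 1 of the 4 libraries. BNA5 (YLR231C, chromosome XII, 605758 to 607119), kynureninase, had 42.0 and 29.0 CPM in the snt1 deletion, against 80.1 and 111.7 CPM in naive, a log2 fold change of -1.43 ± 0.25 with adjusted p = 0.0248. NRT1 (YOR071C, chromosome XV, 459480 to 461276), which imports nicotinamide riboside, had 16.6 and 15.4 CPM in the snt1 deletion, against 31.3 and 45.6 CPM in naive, a log2 fold change of -1.26 ± 0.21 with adjusted p = 0.0241. NRT1 and BNA5 include reads shared with other targets. Without naive replicate 2 the adjusted p was 0.115 for BNA2, 0.189 for BNA5 and 0.154 for NRT1.

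The remaining steps of the pathway were uneven. Of the 7 BNA genes 5 had a negative value and 2 a positive one, up to 0.32. Of the 16 NAD genes 10 had a negative value and 6 a positive one. BNA1, the dioxygenase after Bna5, had 9.20 and 2.69 CPM in the snt1 deletion and 20.2 and 14.7 CPM in naive. Its 2 deletion libraries were more than 3-fold apart, and the log2 fold change of -1.55 ± 0.43 had adjusted p = 0.232, against 4e-04 without snt1 deletion replicate 1. BNA6, the phosphoribosyltransferase that closes the pathway, had 213.7 and 233.3 CPM in the snt1 deletion and 200.0 and 326.6 CPM in naive, with overlapping groups. TNA1, the nicotinic acid permease, had 166.3 and 104.5 CPM in the snt1 deletion and 190.9 and 238.4 CPM in naive, with adjusted p = 0.434, against 0.0312 without snt1 deletion replicate 1. The genes that passed thus stand at 3 enzyme steps and 1 transporter, while the last step gave no call.

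Of the 4 genes that rose, 3 serve iron uptake. Under low iron the activators Aft1 and Aft2 switch on a high-affinity system in which the ferroxidase Fet3 and the permease Ftr1 work as a pair, and transporters for siderophores, iron carriers made by other microbes. Of 31 genes of iron uptake and use tested, 3 were higher and 0 lower in the snt1 deletion, with a median log2 fold change of 0.32 and 25 positive values. Over all genes 0.0626% were called higher. With spike-in library sizes this median was -0.24, while that of all genes was -0.66.

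FET3 (YMR058W, chromosome XIII, 388822 to 390732) had 760 and 529 CPM in the snt1 deletion, against 111 and 128 CPM in naive. It was 5.38-fold higher, with a log2 fold change of 2.43 ± 0.26 and adjusted p = 0.00117. FTR1 (YER145C, chromosome V, 460526 to 461740) had 498 and 293 CPM in the snt1 deletion, against 89.0 and 124 CPM in naive, a log2 fold change of 1.89 ± 0.28 with adjusted p = 0.0105. SIT1 (YEL065W, chromosome V, 27657 to 29543), a transporter of the siderophore ferrioxamine B, had 64.6 and 34.9 CPM in the snt1 deletion, against 9.25 and 7.63 CPM in naive. It was 5.86-fold higher, with a log2 fold change of 2.55 ± 0.29 and adjusted p = 0.00191. For all 3 genes snt1 deletion replicate 1 was the higher of the pair, and both deletion libraries were at least 2-fold above both naive ones. FET3 and SIT1 kept their calls without any 1 library, and the adjusted p of FTR1 was 0.12 without naive replicate 1. TIS11, which promotes decay of messages for iron-using proteins, had 22.01 and 16.29 CPM in the snt1 deletion and 6.91 and 9.58 CPM in naive. Its log2 fold change of 1.23 ± 0.25 had adjusted p = 0.0664, against 0.042 without snt1 deletion replicate 1 and 0.00843 without snt1 deletion replicate 2. The siderophore transporters ARN1 and ARN2 gave 1.17 and 0.97, with adjusted p of 0.196 and 0.113. ARN1 passed without snt1 deletion replicate 2 (0.000936), and ARN2 without snt1 deletion replicate 1 (0.0494) or 2 (0.0421). For TIS11, ARN1 and ARN2 the deletion libraries were above the naive ones without a call in the full set.

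The upstream DNA of the 3 iron genes is shown with the core of the Aft site, TGCACC or its reverse complement, in capitals. Build, source and window are those of the sequences above. FET3 is chrXIII:388522-388721 on the plus strand, FTR1 is chrV:461841-462040 on the minus strand and SIT1 is chrV:27357-27556 on the plus strand.
FET3: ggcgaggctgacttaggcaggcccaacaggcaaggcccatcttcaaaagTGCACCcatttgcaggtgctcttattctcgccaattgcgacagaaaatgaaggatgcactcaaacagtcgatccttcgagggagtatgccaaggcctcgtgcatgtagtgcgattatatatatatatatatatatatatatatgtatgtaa
FTR1: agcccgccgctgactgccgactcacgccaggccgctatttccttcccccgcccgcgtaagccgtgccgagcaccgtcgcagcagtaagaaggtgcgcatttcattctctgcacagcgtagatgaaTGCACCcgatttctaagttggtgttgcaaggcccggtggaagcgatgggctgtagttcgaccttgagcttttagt
SIT1: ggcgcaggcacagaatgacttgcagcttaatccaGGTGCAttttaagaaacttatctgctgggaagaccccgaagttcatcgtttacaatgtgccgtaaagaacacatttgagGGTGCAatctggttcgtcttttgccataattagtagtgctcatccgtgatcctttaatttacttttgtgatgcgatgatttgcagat
All 3 annotated genes called higher held these letters within 300 bases of the start codon, 1 copy each before FET3 and FTR1 and 2 before SIT1. They occurred in 4 of 22 annotated genes called lower (18.2%) and in 415 of 5993 reading frames (6.92%). The SIT1 window also held 1 Rgt1 match that overlaps a match of the PAC letters GATGAG. FET3, FTR1 and SIT1 are of the kind named above as switched on by Aft1 and Aft2, so the Aft matches are no separate evidence. They describe letters only, and no binding was measured here.

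**Figure D2:**
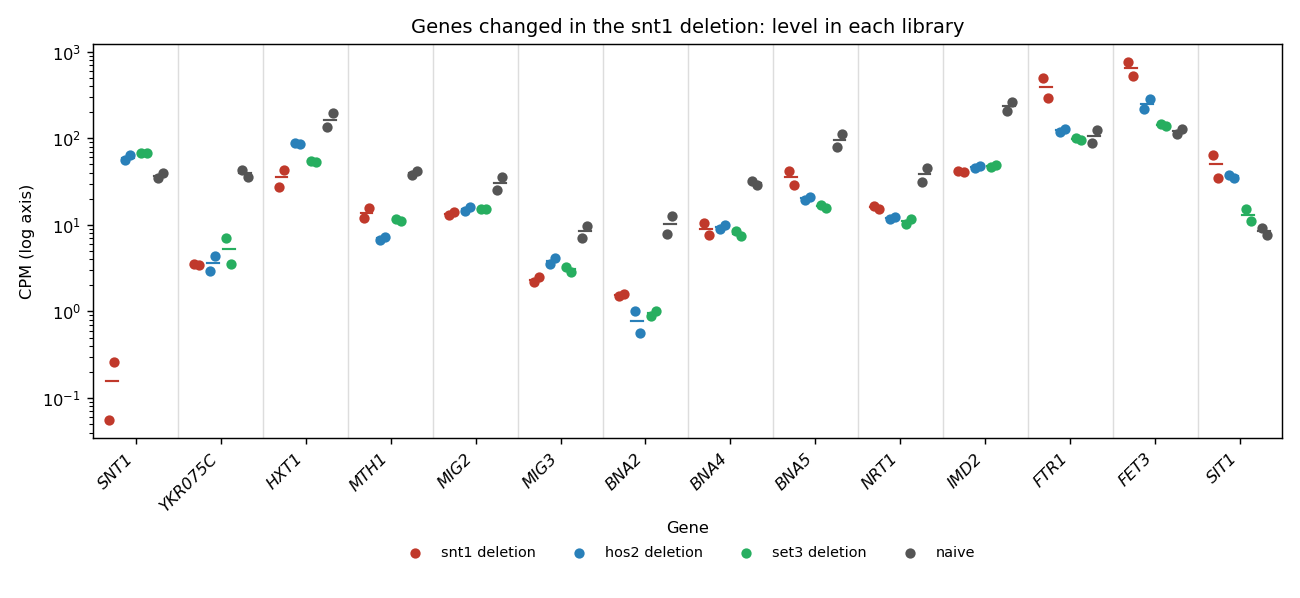
CPM in each library (y axis, log scale) of 14 called genes (x axis) in the snt1, hos2 and set3 deletions and in naive, with 2 points per group and a line at their mean. SNT1 is near 0 in the snt1 deletion alone, the glucose, NAD and IMD2 genes are lower in all 3 deletions than in naive, and FTR1 stands apart from the other groups in the snt1 deletion, with 293 and 498 CPM.

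IMD2 (YHR216W, chromosome VIII, 554396 to 555967) encodes IMP dehydrogenase, the enzyme that commits purines to guanine nucleotides. It had 41.6 and 40.2 CPM in the snt1 deletion, against 208.5 and 261.1 CPM in naive, a log2 fold change of -2.52 ± 0.21 with adjusted p = 0.000199. Its 2 deletion libraries were close to each other, and the gene was 5.74-fold lower. The gene lies entirely in the outer 8.25 kb of the chromosome arm, and its reads are partly shared with its near-identical relatives. IMD4, on chromosome XIII, had 652 and 820 CPM in the snt1 deletion and 290 and 391 CPM in naive, a log2 fold change of 1.11 with adjusted p = 0.105, against 0.0168 without snt1 deletion replicate 1. Summed over IMD2, IMD3 and IMD4, the family had 1234 and 1126 CPM in the snt1 deletion and 961 and 1151 CPM in naive. Of 14 genes of purine synthesis tested, IMD2 was the 1 lower and 0 were higher, with a median of -0.004, where 0.391% of all genes were lower and 0.0626% higher.

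The other annotated genes that fell have scattered functions. YJR115W (chromosome X), which is uncharacterised, had 11.3 and 15.7 CPM in the snt1 deletion, against 57.1 and 49.1 CPM in naive, a log2 fold change of -1.98 ± 0.25 with adjusted p = 0.00337. RGI1 (chromosome V), induced in respiratory growth, had 15.9 and 27.1 CPM in the snt1 deletion, against 70.8 and 64.4 CPM in naive, with adjusted p = 0.0241. The reading frame YER067C-A, which by its systematic name lies beside RGI1 on the other strand and shares reads, was called too, with adjusted p = 0.0113, and the 2 cannot be told apart here. PHO11 (chromosome I), a secreted acid phosphatase, had 26.4 and 38.9 CPM in the snt1 deletion, against 88.3 and 99.7 CPM in naive, with a log2 fold change of -1.53 ± 0.25 and adjusted p = 0.0182. With its near-identical copy PHO12 it summed to 113 and 203 CPM in the snt1 deletion and 354 and 503 CPM in naive. TIR1 (chromosome V), a cell wall mannoprotein, had 19.2 and 16.4 CPM in the snt1 deletion, against 43.2 and 79.4 CPM in naive, with adjusted p = 0.0374. BIO2, biotin synthase, ZTA1, a quinone oxidoreductase, MGA1, a protein like heat shock factor, and MPF1 had log2 fold changes of -1.23, -1.09, -1.40 and -1.26, with adjusted p of 0.0311, 0.0412, 0.0248 and 0.0113. Among all of these only YJR115W kept its call without any 1 library. Without naive replicate 1 the adjusted p was 0.179 for RGI1, 0.112 for YER067C-A, 0.0796 for PHO11, 0.118 for ZTA1, 0.293 for MGA1 and 0.0884 for MPF1. Without naive replicate 2 it was 0.115 for RGI1, 0.132 for PHO11, 0.189 for TIR1, 0.207 for BIO2, 0.207 for ZTA1, 0.0683 for MGA1 and 0.0564 for MPF1. TIR1 also had 0.0505 without snt1 deletion replicate 1 and 0.196 without snt1 deletion replicate 2.

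Several calls fell on repeated sequences, whose reads kallisto divides between copies. Of 43 gag-pol reading frames of Ty retrotransposons tested, 2 were lower and 0 higher, with a median log2 fold change of -0.65, against 0.391% lower, 0.0626% higher and a median of -0.004 over all genes. Summed over all 46 frames they had 1216 and 1581 CPM in the snt1 deletion, against 2303 and 2114 CPM in naive. YHR214C-B had 84.8 and 110.4 CPM in the snt1 deletion, against 311.6 and 275.6 CPM in naive, with adjusted p = 0.0135, and 0.0796 without naive replicate 1. YNL284C-B had 6.10 and 7.58 CPM in the snt1 deletion, against 19.2 and 14.4 CPM in naive, with adjusted p = 0.0173, and 0.197 without naive replicate 1. The telomeric helicase genes YRF1-3 and YRF1-7 have identical values, 1.82 and 2.41 CPM in the snt1 deletion and 12.3 and 19.1 CPM in naive, and adjusted p = 0.0256. Both missed the threshold without naive replicate 2 (adjusted p = 0.0895), snt1 deletion replicate 1 (0.096) or snt1 deletion replicate 2 (0.221). Over all 8 YRF1 genes the sum was 229 and 568 CPM in the snt1 deletion and 324 and 500 CPM in naive, with overlapping groups. The part of the division of reads between copies in these calls was not tested.

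Of 194 tested genes that lie entirely in the outer 20 kb of a chromosome arm, 5 were lower and 0 higher, with a median of -0.29. In the outer 10 kb 4 of 83 were lower, with a median of -0.43, and in the outer 40 kb 6 of 462 were lower and 1 higher, with a median of -0.13. Over all genes 0.391% were lower and 0.0626% higher, with a median of -0.004. The 5 within 20 kb were IMD2, PHO11, YHR214C-B, YRF1-3 and YRF1-7, all with shared reads. Of the genes absent from the annotation, YJL026C-A had 0 counts in both snt1 deletion libraries, against 266 and 231 in naive. Set against a floor of 3 counts over the group, its assigned counts scaled for library size were at least 133-fold lower. Its counts, which include shared reads, were 386 and 185 with HOS2 deleted and 383 and 75 with SET3 deleted. The part of the division of reads between targets in its 0 counts was not tested. YGR137W, also with shared reads and no annotation, had 17.96 and 21.77 CPM in the snt1 deletion, against 9.38 and 7.64 CPM in naive. Its log2 fold change was 1.21 ± 0.21 with adjusted p = 0.0251, and its adjusted p was 0.12 without naive replicate 1 and 0.207 without naive replicate 2.

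**Figure D3:**
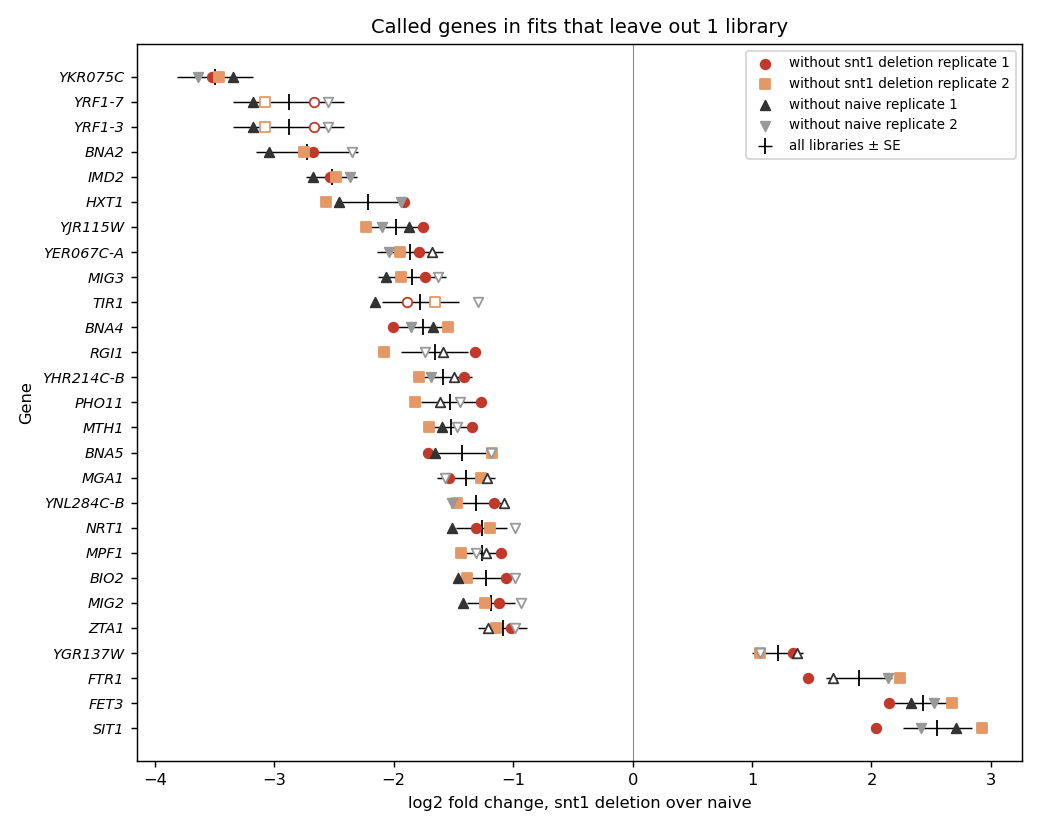
log2 fold change of the snt1 deletion over naive (x axis) for 27 called genes (y axis) in the full set (black tick with SE) and in 4 fits that each leave out 1 library. Filled markers pass an adjusted p of 0.05 and open markers do not, and open markers are mostly those without a naive library. All values of a gene keep their sign.

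Lists of growth and stress genes held no called gene in the snt1 deletion. With 0.454% of all genes called, a count of 0 in lists of these sizes is near the background. Of 137 cytoplasmic ribosomal protein genes tested, 0 passed in either direction, with a median log2 fold change of 0.31. Of 46 ribosome biogenesis genes, 0 passed, with a median of 0.27. NOP58, a core box C/D snoRNP protein, had 195 and 265 CPM in the snt1 deletion and 114 and 134 CPM in naive. Of 33 general stress genes 0 passed, with a median of -0.29, and of 24 heat shock genes 0 passed, with a median of 0.19. Of 48 genes of the TCA cycle and respiration 0 passed. The nearest was CYC7, a cytochrome c isoform, with 2.72 and 2.10 CPM in the snt1 deletion and 15.1 and 6.85 CPM in naive, a log2 fold change of -2.20 ± 0.42 and adjusted p = 0.0526. CYC7 passed without naive replicate 2 (0.0287) and without snt1 deletion replicate 1 (0.0464). With spike-in library sizes the medians of the ribosomal protein and ribosome biogenesis genes were -0.29 and -0.38, against -0.66 over all genes. Their sign thus turns with the scaling, while both medians lay above that of all genes under either one.

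**Figure D4:**
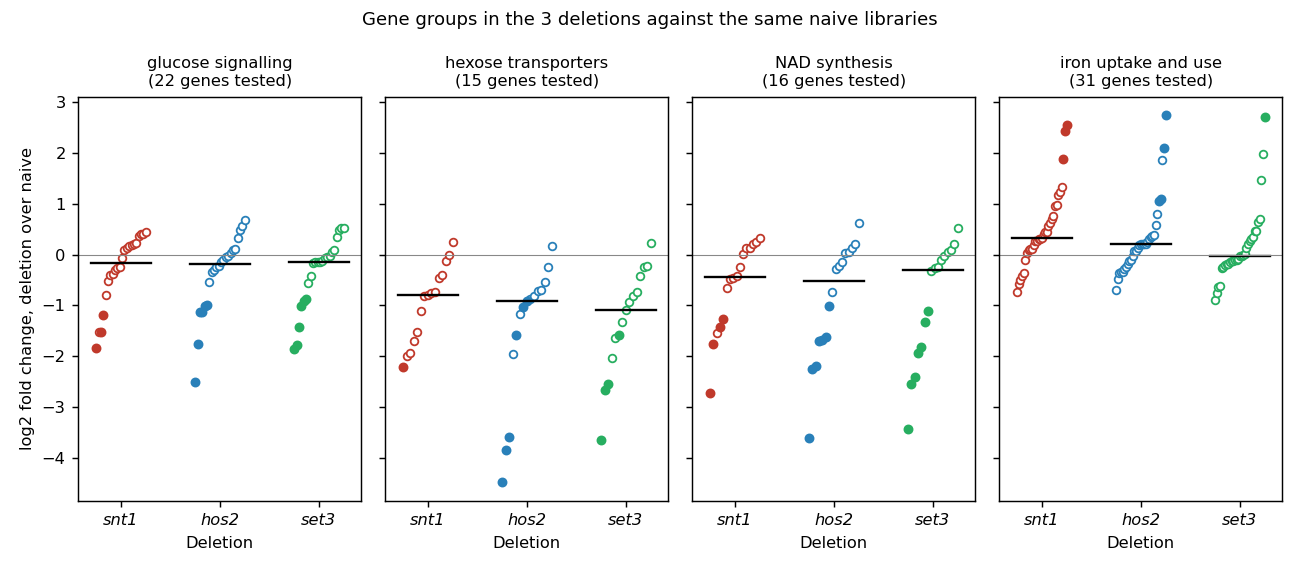
log2 fold change over naive (y axis) of each tested member of 4 gene groups in the snt1, hos2 and set3 deletions, all set against the same 2 naive libraries. Filled points pass an adjusted p of 0.05, and the bar is the median. In the snt1 deletion 3 glucose signalling genes, 1 hexose transporter and 4 NAD genes are filled below 0 and 3 iron genes above 0.

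The same genes were read in the other 2 deletions, which share their naive libraries with the snt1 deletion, so the values are only set side by side. Against naive, 29 genes (0.454%) passed in the snt1 deletion, beside 489 (7.65%; 2.96% higher, 4.69% lower) with HOS2 deleted and 160 (2.5%; 0.579% higher, 1.92% lower) with SET3 deleted. YKR075C had log2 fold changes of -3.50, -3.46 and -2.82 in the snt1, hos2 and set3 deletions. IMD2 had -2.52, -2.33 and -2.31. BNA4 had -1.76, -1.70 and -1.93, and BNA2 had -2.73, -3.62 and -3.44. MTH1 had -1.52, -2.50 and -1.79. Iron genes were more uneven. SIT1 had 2.55, 2.09 and 0.65, FET3 had 2.43, 1.07 and 0.26, and FTR1 had 1.89, 0.22 and -0.12. Ribosome biogenesis genes had 0, 27 and 8 of 46 called higher in the snt1, hos2 and set3 deletions, with medians of 0.27, 0.83 and 0.64.

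Direct tests asked where the snt1 deletion itself differed from the other 2 deletions. Against the hos2 deletion 202 genes passed (3.16%), 142 higher in the snt1 deletion (2.22%) and 60 lower (0.939%). Against the set3 deletion 12 passed (0.188%), 9 higher (0.141%) and 3 lower (0.0469%). These counts include the deleted genes themselves. HOS2 is among the higher genes against the hos2 deletion, SET3 among those against the set3 deletion, and SNT1 among the lower in both. Of the 29 genes called against naive, 10 differed between the snt1 and hos2 deletions and 6 between the snt1 and set3 deletions, SNT1 among both. A p that missed the threshold does not show that the deletions act alike.

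FET3 and FTR1 were higher in the snt1 deletion than in either other deletion. FET3 had 760 and 529 CPM in the snt1 deletion, 219 and 282 CPM in the hos2 deletion and 147 and 140 CPM in the set3 deletion. Its log2 difference was 1.36 ± 0.25 from the hos2 deletion (adjusted p = 0.0289) and 2.17 ± 0.26 from the set3 deletion (adjusted p = 0.00466). FTR1 had 498 and 293 CPM in the snt1 deletion, 119 and 129 CPM in the hos2 deletion and 101 and 95.3 CPM in the set3 deletion. It differed by 1.68 ± 0.27 (adjusted p = 0.0166) from the hos2 deletion and by 2.01 ± 0.28 (adjusted p = 0.0112) from the set3 deletion. SIT1 differed from the set3 deletion by 1.90 ± 0.28 (adjusted p = 0.0167), with 64.6 and 34.9 CPM in the snt1 deletion and 15.3 and 11.0 CPM in the set3 deletion. From the hos2 deletion SIT1 differed by 0.46 ± 0.27 (adjusted p = 0.315). That difference was -0.06 without snt1 deletion replicate 1 and 0.83, with adjusted p = 0.0499, without snt1 deletion replicate 2. TIS11 was higher by 1.16 ± 0.24 than in the hos2 deletion (adjusted p = 0.0336) and by 1.87 ± 0.26 than in the set3 deletion (adjusted p = 0.0112). FRE1, a ferric and cupric reductase gene chosen after its values were seen, was lower in the snt1 deletion than in the hos2 deletion. It had 10.7 and 37.7 CPM in the snt1 deletion, 134.1 and 104.3 CPM in the hos2 deletion, 102.5 and 130.2 CPM in the set3 deletion, and 14.9 and 20.7 CPM in naive. The difference from the hos2 deletion had adjusted p = 0.0398, and that from the set3 deletion 0.0961, against 0.00384 and 4.31e-06 without snt1 deletion replicates 1 and 2.

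COQ21, ALD4 and HOR7 were higher in the snt1 deletion than in both other deletions. COQ21 (YBR230W-A, chromosome II, 680362 to 680562) had 15.8 and 23.0 CPM in the snt1 deletion, 3.50 and 3.89 CPM in the hos2 deletion, 4.90 and 5.56 CPM in the set3 deletion, and 17.4 and 19.3 CPM in naive. It differed from the hos2 deletion by 2.40 ± 0.23 (adjusted p = 0.000594) and from the set3 deletion by 1.90 ± 0.23 (adjusted p = 0.00511). ALD4, the mitochondrial aldehyde dehydrogenase, had 424 and 315 CPM in the snt1 deletion, 80.9 and 107 CPM in the hos2 deletion, 123 and 118 CPM in the set3 deletion, and 249 and 286 CPM in naive. It differed by 1.97 ± 0.25 (adjusted p = 0.00414) from the hos2 deletion and by 1.61 ± 0.25 (adjusted p = 0.0188) from the set3 deletion. HOR7, a gene induced by high osmolarity, differed by 1.97 ± 0.26 (adjusted p = 0.00452) from the hos2 deletion and by 1.62 ± 0.25 (adjusted p = 0.0189) from the set3 deletion. In none of these 3 genes did the snt1 deletion differ from naive past the threshold.

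The high-affinity hexose transporters HXT7 and HXT4 were higher in the snt1 deletion than in the hos2 deletion. HXT7 had 952 and 631 CPM in the snt1 deletion and 76.2 and 117 CPM in the hos2 deletion, a log2 difference of 3.04 ± 0.35 with adjusted p = 0.00197. HXT4 had 274 and 174 CPM in the snt1 deletion and 39.0 and 41.6 CPM in the hos2 deletion, a log2 difference of 2.48 ± 0.31 with adjusted p = 0.00414. Against the set3 deletion the 2 differences had adjusted p of 0.0666 each. They passed without snt1 deletion replicate 1, at 0.0172 for HXT7 and 0.022 for HXT4, and without snt1 deletion replicate 2, at 0.00591 and 0.00406. HXT1 went the other way, with 27.4 and 43.0 CPM in the snt1 deletion and 88.1 and 84.7 CPM in the hos2 deletion, a log2 difference of -1.30 ± 0.26 with adjusted p = 0.0327. MTH1 was higher in the snt1 deletion than in the hos2 deletion, by 0.98 ± 0.21 (adjusted p = 0.0351). RMT2, a protein arginine methyltransferase gene, had 17.4 and 18.3 CPM in the snt1 deletion, 41.1 and 42.7 CPM in the hos2 deletion and 18.9 and 18.9 CPM in naive, with adjusted p = 0.0143 for the difference from the hos2 deletion. Of 43 Ty frames 15 were lower in the snt1 than in the hos2 deletion and 0 higher, with a median of -1.11, against 0.939% lower, 2.22% higher and a median of -0.06 over all genes in that comparison.

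These direct counts leaned on single libraries. Against the hos2 deletion, 5 genes passed without hos2 deletion replicate 1 and 9 without hos2 deletion replicate 2, with 1264 without snt1 deletion replicate 1 and 212 without snt1 deletion replicate 2. COQ21 kept its call in all 4 fits, with adjusted p of 0.0215 and 0.0114 without each hos2 deletion library. HXT7 and ALD4 had 0.0735 and 0.123 without hos2 deletion replicate 1 and 0.021 and 0.0372 without hos2 deletion replicate 2. HXT4, HOR7 and RMT2 had 0.123, 0.123 and 0.133 without hos2 deletion replicate 1 and 0.0703, 0.0757 and 0.0757 without hos2 deletion replicate 2. FET3, FTR1, TIS11, FRE1, HXT1 and MTH1 had between 0.324 and 0.351 without hos2 deletion replicate 1 and between 0.0762 and 0.168 without hos2 deletion replicate 2. MTH1 had 0.069 without snt1 deletion replicate 2. Against the set3 deletion, 2 genes passed without set3 deletion replicate 1 and 3 without set3 deletion replicate 2, with 727 and 83 without snt1 deletion replicates 1 and 2. COQ21, FET3, FTR1, SIT1, TIS11, ALD4 and HOR7 all missed the threshold in both fits that left out a set3 deletion library, with adjusted p between 0.0847 and 0.331.

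**Figure D5:**
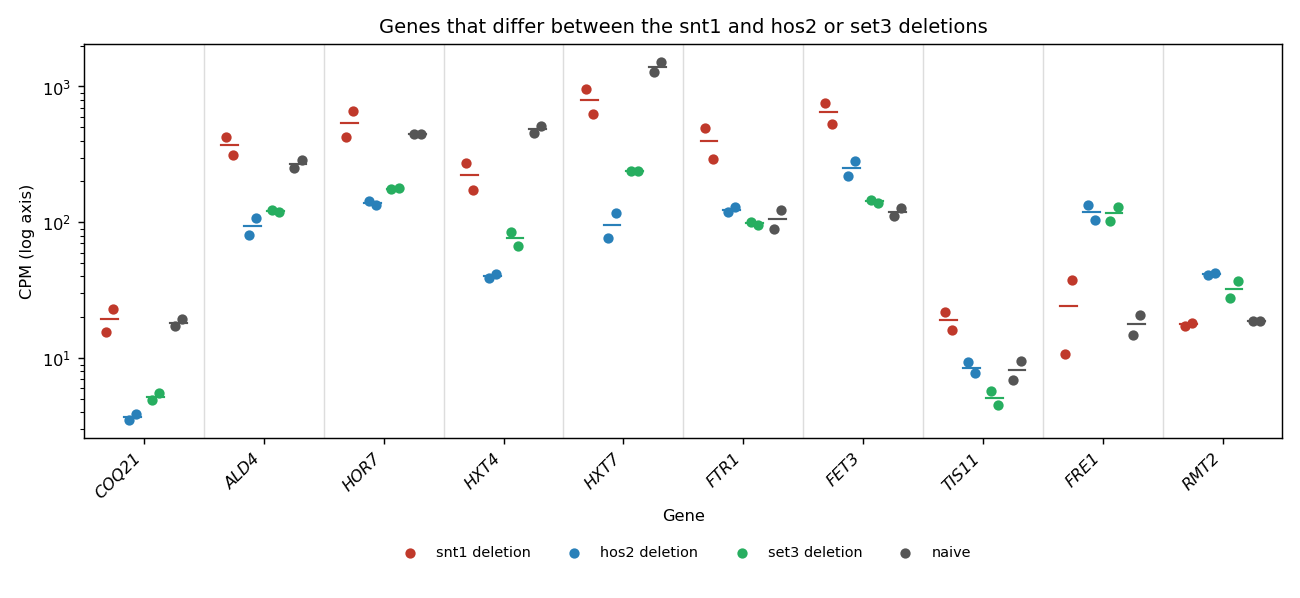
CPM in each library (y axis, log scale) of 10 genes (x axis) that differ between the snt1 deletion and the hos2 or set3 deletion, with 2 points per group and a line at their mean. COQ21, ALD4 and HOR7 in the snt1 deletion lie near naive, FTR1, FET3 and TIS11 lie above the other 3 groups, and FRE1 lies near naive, with 10.7 and 37.7 CPM.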

How the data were processed

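Per the labels' protocols, RNA was taken with hot acid phenol, given ERCC spike-ins, primed at poly(A) tails on beads and sequenced with paired ends; strand is not stated. Estimated counts, without normalization, and TPM were deposited by the authors for 7218 targets, 92 of them spike-ins; the submitters' processing notes name kallisto 0.44 and build R64. Of 6685 reading frames 6006 matched the R64 annotation by name. Estimated counts were rounded and spike-ins left out. filterByExpr kept 6390 genes, 1391 with shared reads (a count more than 1e-06 from whole). edgeR 4.0.16 in R 4.3.3 was fitted over all 10 libraries (TMM, robust quasi-likelihood, 1 coefficient per group), two-sided, Benjamini-Hochberg at 0.05. An SE is the log2 fold change over the root of F. CPM use TMM-scaled sizes.

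Genes and lists were chosen with earlier results of these data known. Named genes are SNT1, its complex, its neighbours, called genes of at least 5 CPM with groups apart, up to 4 genes per list by p, and the 6 genes of smallest p each way between deletions; other list members, and FRE1, were added after their values were seen. The alternatives were DESeq2 1.42.0 and its size factors (RLE), spike-in library sizes, limma-trend (limma 3.58.1) on log2(TPM + 1), other filters, fewer groups, a replicate block and leaving out each library. Restricting the genes to nuclear reading frames was added after seeing the data. The fit was tested on simulated data. Changes of 2-fold, 4-fold and 8-fold put into the snt1 deletion were called in 37.3%, 91% and 97% of cases. Of 6224 genes in that fit, 7 unchanged ones were called. The changes were put only into genes over 1 CPM in naive. All other groups were given the naive means, and each gene had the same spread in all libraries. The real snt1 deletion pair was more spread than the naive pair, with 11.0% against 4.54% of genes more than 2-fold apart. The simulated rates thus need not hold for the real comparison. Matches of promoter motifs were searched on both strands in 300 bases before each start codon. The 100 bases next to it are not printed.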

Additional observations from a re-analysis of the deposited data

How the results depend on the processing

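The snt1 deletion against naive gave 4 genes higher and 25 lower. The split was 0 and 3 with spike-in library sizes, 12 and 47 with the replicate block, 0 and 6 with the 2 groups alone, 41 and 58 with DESeq2, 2 and 17 with limma-trend, and 4 and 15 without genes of shared reads. Leaving out 1 library gave 2 to 183 higher and 13 to 137 lower. The RLE sizes, no filter, the 10 CPM filter, the fit without [ESI+] and nuclear frames alone stayed within 1.5 times both counts. The 202 genes differing from the hos2 deletion became 5 with spike-in sizes, 373 with the 10 CPM filter, 701 with the block, 22 without [ESI+], 1 with those groups alone, 706 with DESeq2, 85 with limma-trend and 5 to 1264 without 1 library. The 12 differing from the set3 deletion became 4 with spike-in sizes, 30 with the 10 CPM filter, 159 with the block, 3 with those groups alone, 36 without genes of shared reads, 259 with DESeq2 and 2 to 727 without 1 library. The causes were not tested. Among the 29 genes called against naive and the genes named in the direct tests between deletions, 1 difference turned its sign. This was SIT1 against the hos2 deletion, at 0.46 and uncalled. It was -0.35 with spike-in sizes, -0.23 with limma-trend and -0.0598 to 0.83 without 1 library. Under the replicate block TIR1 alone of the 29 genes lost its call, with adjusted p = 0.0521. The labels do not tie the 2 replicate numbers to shared cultures, so they share only a number; deviations of same-numbered snt1 deletion and naive libraries correlated at 0.346. limma-trend moved the median of all genes to -0.23. A fit without 1 library assumes that the lone library varies like the other groups. With 2 libraries per group, a missing call does not show that a gene did not change.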
